A study of Mus musculus with 6 samples.

Results

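The translation initiation and elongation factor genes were described here across 6 mNET-seq libraries of mouse embryonic stem cells with and without Mettl3, the gene for the catalytic subunit of the m6A methyltransferase, which methylates adenosines in RNA. The members were the protein-coding genes with a symbol that starts with Eif or Eef followed by a digit, each represented by its protein-coding transcript with the longest genomic span. The rule gave 65 of the 12974 protein-coding genes tested (53 Eif and 12 Eef symbols); Eef1a2, Eif4e1b and Eif4e3 were not analysed here. The groups were a first Mettl3 knockout (KO1), a second Mettl3 knockout (KO2) and Control, with 2 libraries each, all from C57BL/6 cells grown in serum medium with LIF and the inhibitors CHIR99021 and PD0325901. How the knockouts were made, and whether each is 1 clone, is not in the labels. Nor do they say that replicates came from separate cultures, and the p-values below may then reflect technical spread alone. In mNET-seq, chromatin is cut with micrococcal nuclease, RNA polymerase II is precipitated with an antibody, and the short RNA it holds is sequenced, here as gel fragments of 35 to 100 nucleotides. The authors deposited 1 value per transcript and library, called an escaping index, and the numbers themselves behave as log2 of a ratio. Which regions stand above and below the line of that ratio is not stated, so a higher or lower index is given here as a value only, without what it means for polymerase. It is taken neither as an RNA level nor as an amount of polymerase, and the loss of Mettl3 cannot be checked with it.

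Initiation begins when eIF2 brings the initiator tRNA to the small ribosomal subunit together with eIF1, eIF1A, eIF3 and eIF5, and the cap-binding complex eIF4F places that assembly on the mRNA, where it scans for a start codon. eIF5B then joins the large subunit, eEF1A delivers aminoacyl-tRNAs, eEF2 moves the ribosome along, and eIF5A, which carries the modified residue hypusine, relieves stalls. Stress kinases that phosphorylate eIF2 and the eIF4E-binding proteins turn initiation down, and stem cells are known for a low rate of protein synthesis that is under tight control.

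The translation factor genes mostly lay below Control in both knockouts, as did most genes in the table. On the log2 scale the median of their 65 changes was -0.21 in KO1 and -0.45 in KO2, where that of all 12974 genes was -0.37 in KO1, -0.58 in KO2 and -0.47 for their average. The change was below 0 for 46 members in KO1, where 77% of all genes were below 0, for 58 in KO2, where 85.8% were, and for 56 in the average, where 84.6% were. The members' median index was 5.39 in KO1, 5.26 in KO2 and 5.74 in Control, and that of all genes was 4.43 in KO1, 4.24 in KO2 and 4.80 in Control.

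In the limma fit over all genes, 2 of 65 members passed an adjusted p of 0.05 in KO1, both lower, where 6% of all genes were called lower. In KO2, 14 members were called, all lower, where 29% of all genes were called lower. In the average of both knockouts, 13 members were called lower, where 26% of all genes were. In either direction, 6.27% of all genes were called in KO1, 29.6% in KO2 and 26.5% for the average. No member was called higher (0 in each of these contrasts), where 0.27% of all genes were in KO1, 0.563% in KO2 and 0.578% for the average; at an unadjusted p under 0.05, 1 member was higher in KO1 and 0 elsewhere. That unadjusted threshold took 15 members in KO1 (32.1% of all genes), 23 in KO2 (46.2%) and 20 in the average (44%). The share of members called was under that of all genes each time, and the counts say nothing particular about this family. The calls rested on all 6 libraries: leaving out any 1 gave 0 calls in KO1, and KO2 had 0 without Control replicate 2, KO2 replicate 1 or KO2 replicate 2, 5 without Control replicate 1 and 9 without KO1 replicate 1 or KO1 replicate 2. For the average there were 3 without KO1 replicate 2 and 0 without any other library. In 26 of 65 members (40.0%) all 4 knockout libraries lay below both Control libraries, as in 45.3% of all genes, and in 1 member, Eif3h, all 4 lay above, as in 2.13%. Taken singly, KO1 lay below both Control libraries in 32 members (53.3% of all genes) and above them in 7 (8.56%), and KO2 lay below in 46 (67%) and above in 4 (4.99%).

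Because the whole table moved, the same fit was also read relative to that shift, with each library centred on its own median. All 29 calls on 18 members kept a value below 0 after centring, and 0 of 29 passed; centring brought the members' medians to 0.16 in KO1 and 0.11 in KO2. The loss was of every call in the table, since 0 of all 12974 genes passed in any contrast after centring or after quantile normalization. "Fell" and "rose" below therefore mean lower and higher than Control on the deposited scale, and each member that fell has its centred value beside it. The smallest adjusted p of a member after centring was 0.0797, for Eif5a2. Of the 18 genes called in any contrast, 10 overlap another annotated gene, whose reads may enter the index, and 8 do not.

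**Figure D1:**
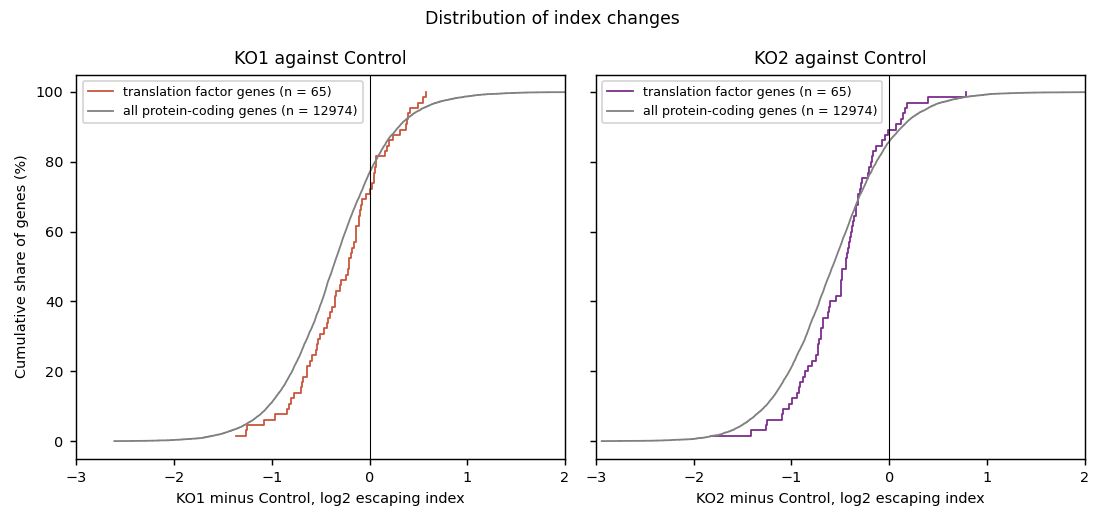
Cumulative share of genes (%) against the change of the log2 escaping index, KO1 minus Control in the left panel and KO2 minus Control in the right. The coloured steps are the 65 translation factor genes and the grey line all 12974 protein-coding genes; the members' medians of -0.21 in KO1 and -0.45 in KO2 lie to the right of the medians of all genes, -0.37 and -0.58.

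**Figure D2:**
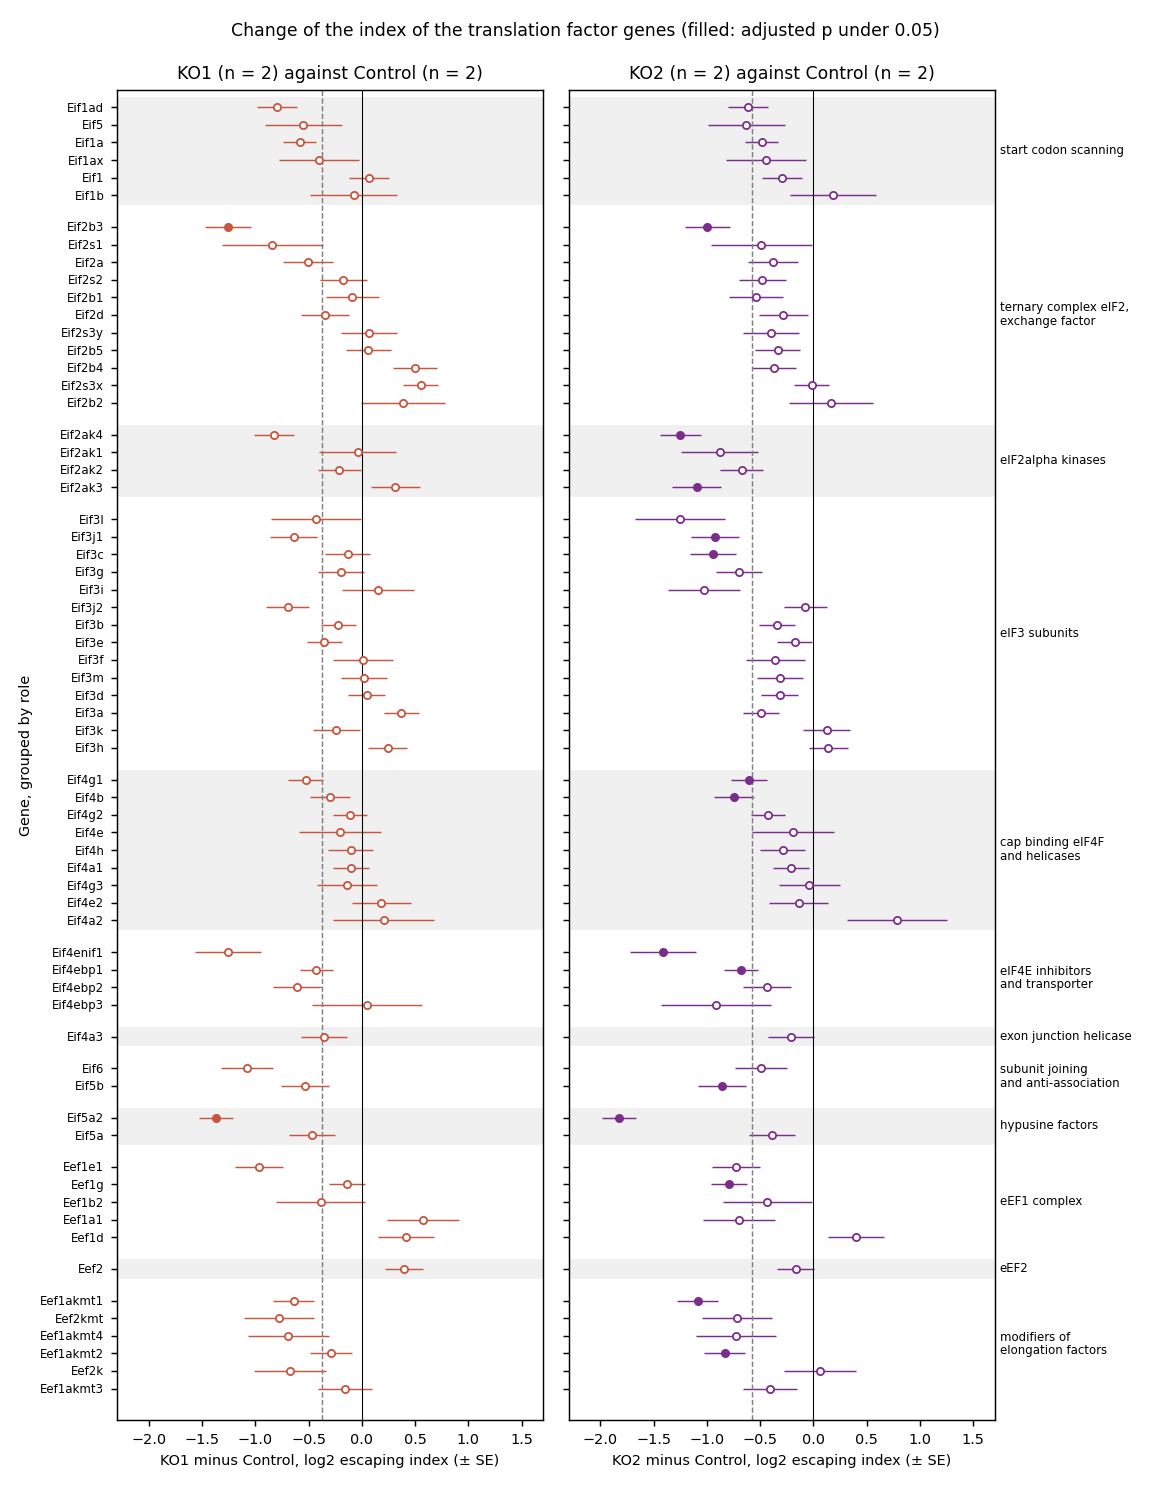
Change of the log2 escaping index with its standard error from the limma fit for each of the 65 genes, grouped by role, KO1 minus Control on the left and KO2 minus Control on the right (2 libraries per group). Filled points passed an adjusted p of 0.05, all of them lower and none after median centring; the dashed line is the median change of all genes.

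Under start codon scanning, 6 genes were grouped. Of these, 0 fell in KO1 (6% of all genes did), 0 in KO2 (29%) and 2 for the average (26%). The group includes Eif1ad, whose part in scanning was not tested. Counts of the role groups, here and below, were not tested against these shares. Eif1a encodes eIF1A, which keeps the small subunit open for scanning. Its index was 3.85 and 3.88 in KO1, 3.99 and 3.93 in KO2, and 4.48 and 4.41 in Control. All 4 knockout libraries lay below both Control libraries, and the average fell by 0.54 ± 0.14 (SE; adjusted p = 0.0392), which centring reduced to -0.07. Eif1ad, which encodes a protein with an eIF1A-like domain, stood at 2.56 and 2.40 in KO1, 2.76 and 2.57 in KO2, and 3.16 and 3.40 in Control. All 4 knockout libraries again lay below both Control libraries, and the average fell by 0.71 ± 0.16 (adjusted p = 0.0317; -0.24 after centring). Eif1, whose product guards start codon choice, did not pass in KO1 (0.07 ± 0.19) or KO2 (-0.30 ± 0.19), and Eif5, the GTPase activator of eIF2, had the same sign in both knockouts without passing (KO1 -0.55 ± 0.36, KO2 -0.63 ± 0.36). Eif1b, a paralog of Eif1, was at 2.15 and 0.94 in KO1, 1.90 and 1.72 in KO2, and 1.77 and 1.48 in Control, and Eif1ax, the X-linked paralog of Eif1a, at 5.46 and 6.05 in KO1, 5.88 and 5.54 in KO2, and 6.62 and 5.69 in Control. The groups overlapped for both genes, and neither passed.

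The 11 genes of eIF2, its exchange factor eIF2B and the alternative tRNA carriers had medians of -0.09 in KO1 and -0.38 in KO2. In each contrast with Control 1 of the 11 fell (of all genes, 6% in KO1, 29% in KO2 and 26% for the average). That gene was Eif2b3, which encodes the gamma subunit of eIF2B, the factor that recharges eIF2 with GTP. Its index was 5.96 and 5.60 in KO1, 6.14 and 5.95 in KO2, and 7.17 and 6.90 in Control. The 4 knockout libraries lay below both Control libraries. Eif2b3 fell by 1.26 ± 0.21 in KO1 (adjusted p = 0.0416) and by 1.00 ± 0.21 in KO2 (adjusted p = 0.026), and after centring the values were -0.88 and -0.44. The transcript with the longest summed exons gave -1.24 in KO1 and -0.96 in KO2, and both passed. The other 4 eIF2B subunits did not pass in any contrast. They stood at -0.09 (Eif2b1), 0.39 (Eif2b2), 0.49 (Eif2b4) and 0.06 (Eif2b5) in KO1 and at -0.54, 0.17, -0.37 and -0.34 in KO2, so the exchange factor's 5 genes had no common direction in KO1. Of the eIF2 subunits, Eif2s1, the alpha subunit that the stress kinases phosphorylate, was at 8.02 and 6.99 in KO1, 8.30 and 7.41 in KO2, and 8.63 and 8.06 in Control. Its replicates were wide apart in every group. Both KO1 libraries lay below both Control libraries, KO2 overlapped Control, and neither passed (KO1 -0.84 ± 0.47, KO2 -0.49 ± 0.47). Eif2a, an alternative tRNA carrier, had all 4 knockout libraries below both Control libraries and did not pass (average -0.44 ± 0.20, adjusted p = 0.15).

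Eif2s3x and Eif2s3y encode the gamma subunit of eIF2, which binds GTP and the initiator tRNA, from the X and the Y chromosome. Eif2s3x was the member with the smallest p among those higher in KO1, at 6.86 and 6.79 in KO1, 6.32 and 6.21 in KO2, and 6.27 and 6.28 in Control. Both KO1 libraries lay above both Control libraries, by 0.55 ± 0.17 on average, and the difference did not pass (adjusted p = 0.0903). Eif2s3y was at 0.07 ± 0.26 in KO1 and -0.40 ± 0.26 in KO2. Their coding sequences are 86.3% identical (GENCODE M21 transcripts), and the longest stretch they share, 34 bases at coding positions 1337 to 1370, is printed in capitals with 6 bases on either side, since sequenced fragments of 35 bases or more can still tell the copies apart there.
Eif2s3x: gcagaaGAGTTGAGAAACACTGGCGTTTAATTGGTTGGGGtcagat
Eif2s3y: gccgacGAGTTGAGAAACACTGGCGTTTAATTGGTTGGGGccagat

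Of the 4 eIF2alpha kinases, 0 fell in KO1 (6% of all genes did), 2 in KO2 (29%) and 1 for the average (26%). Their median in KO2, -0.99, was the lowest among role groups of more than 2 genes, and all 4 lay below the median of all genes there. In KO1 their median was -0.13 and 1 of 4 lay below that of all genes. Eif2ak4 encodes GCN2, the kinase that senses uncharged tRNA when amino acids are short. Its index was 3.45 and 3.21 in KO1, 2.83 and 2.98 in KO2, and 4.27 and 4.04 in Control. The 3 groups did not overlap. Eif2ak4 fell by 1.25 ± 0.19 in KO2 (adjusted p = 0.0177; -0.69 after centring), and KO1 was at -0.82 ± 0.19 (adjusted p = 0.0574). Eif2ak3 encodes PERK, the kinase of endoplasmic reticulum stress. It stood at 7.42 and 7.91 in KO1, 6.36 and 6.17 in KO2, and 7.30 and 7.41 in Control. The KO2 libraries lay below, and the KO1 libraries above, both Control libraries. Eif2ak3 fell by 1.09 ± 0.23 in KO2 (adjusted p = 0.0252; -0.54 after centring) and was at 0.31 ± 0.23 in KO1 (adjusted p = 0.386). Eif2ak1 (HRI, the haem-regulated kinase) and Eif2ak2 (PKR, the kinase of double-stranded RNA) were at -0.88 ± 0.36 and -0.67 ± 0.20 in KO2 and did not pass.

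Downstream of these kinases, phosphorylated eIF2 favours translation of the transcription factor ATF4, and the phosphatase subunits encoded by Ppp1r15a and Ppp1r15b reverse the mark. Of 8 listed genes of this integrated stress response, 1 fell in KO1 (6% of all genes did), 4 in KO2 (29%) and 3 for the average (26%), and 0 were called higher. The list is short, and its count was not tested against those shares. Over this and the other pathway lists there were 29 calls, of which 29 kept their sign after centring and 0 passed, and leaving out any 1 library left 0 of all genes called in KO1. Atf4 was at 3.94 and 3.80 in KO1, 3.52 and 3.27 in KO2, and 4.87 and 4.80 in Control. Every knockout library lay below both Control libraries, and Atf4 fell by 0.97 ± 0.18 in KO1 (adjusted p = 0.0457) and by 1.44 ± 0.18 in KO2 (adjusted p = 0.017), which centring left at -0.59 and -0.88. Ppp1r15a was at -0.15 and 0.05 in KO1, -1.27 and -1.31 in KO2, and 0.36 and 0.43 in Control. It fell by 1.68 ± 0.19 in KO2 (adjusted p = 0.017; -1.13 after centring), and KO1 was at -0.45 ± 0.19 (adjusted p = 0.174). Ppp1r15b fell by 0.76 ± 0.18 in KO2 (-0.21 after centring). Chac1, a stress-induced enzyme of glutathione breakdown, fell by 1.24 ± 0.23 in KO2 (-0.68 after centring) while KO1 was at 0.01 ± 0.23. Asns, Atf3, Ddit3 and Trib3 were below 0 in both knockouts and did not pass.

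The 14 genes of eIF3, the scaffold that holds the initiation assembly on the small subunit, had medians of -0.16 in KO1 and -0.35 in KO2. Of the 14, 0 fell in KO1 (6% of all genes did), 2 in KO2 (29%) and 1 for the average (26%). Eif3c, a core subunit, was at 7.90 and 7.60 in KO1, 7.05 and 6.83 in KO2, and 7.77 and 8.00 in Control. The KO2 libraries stood apart from the other 4, which overlapped, and Eif3c fell by 0.94 ± 0.21 in KO2 (adjusted p = 0.0288; -0.39 after centring) with KO1 at -0.13 ± 0.21. Eif3a, the largest core subunit, was at 6.99 and 7.03 in KO1, 6.21 and 6.08 in KO2, and 6.67 and 6.61 in Control, so the knockouts lay on opposite sides of Control; neither difference passed (KO1 0.37 ± 0.17, KO2 -0.50 ± 0.17). Eif3l, at -1.26 ± 0.42, and Eif3i, at -1.02 ± 0.34, had changes in KO2 as large as called members, but wider spreads, and did not pass. Eif3l had the highest Control index of the 65 genes, with 9.85 and 8.82 in its Control libraries. Eif3h was the gene with all 4 knockout libraries above both Control libraries, at 6.11 and 5.84 in KO1, 5.86 and 5.88 in KO2, and 5.63 and 5.84 in Control. The lowest KO1 and the highest Control value round to the same number, and neither knockout passed.

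Eif3j1 and Eif3j2 encode the loosely bound subunit eIF3j. Eif3j1 was at 7.77 and 7.63 in KO1, 7.20 and 7.63 in KO2, and 8.29 and 8.38 in Control, and fell by 0.92 ± 0.22 in KO2 (adjusted p = 0.0333; -0.37 after centring). Eif3j2, a gene of 1 exon, was at 2.13 and 2.01 in KO1, 2.87 and 2.51 in KO2, and 2.83 and 2.70 in Control, and did not pass. The coding sequences of the pair are 99.24% identical with a shared stretch of 781 bases, and 40.66% of the 35-base windows of the Eif3j1 transcript also occur in the Eif3j2 transcript. How reads that match both were counted is not given in the sources used here, so both values are uncertain. No other paralog pair compared shared a window of 35 bases.

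Of the 9 genes of the cap-binding complex eIF4F and its helicase partners, 0 fell in KO1 (6% of all genes did), 2 in KO2 (29%) and 1 for the average (26%). Their medians, -0.11 in KO1 and -0.21 in KO2, were nearer to 0 than those of all genes. Eif4g1 encodes the scaffold eIF4G, which links the cap-binding protein to the helicase and to eIF3. It was at 5.31 and 5.36 in KO1, 5.27 and 5.24 in KO2, and 5.96 and 5.76 in Control. Neither knockout overlapped Control, and Eif4g1 fell by 0.61 ± 0.17 in KO2 (adjusted p = 0.0444), which depended on the transcript taken and was -0.05 after centring. Eif4b, a cofactor of the helicase eIF4A, was at 7.68 and 7.89 in KO1, 7.38 and 7.30 in KO2, and 8.14 and 8.04 in Control, and fell by 0.75 ± 0.19 in KO2 (adjusted p = 0.0364; -0.19 after centring). The cap-binding protein gene Eif4e, at -0.21 ± 0.39 in KO1 and -0.19 ± 0.39 in KO2, and the helicase gene Eif4a1, at -0.10 ± 0.17 and -0.21 ± 0.17, did not pass. Nor did their paralogs Eif4e2 (KO1 0.18 ± 0.28, KO2 -0.14 ± 0.28), Eif4g2 (KO1 -0.11 ± 0.16, KO2 -0.42 ± 0.16) and Eif4g3 (KO1 -0.14 ± 0.28, KO2 -0.04 ± 0.28). Eif4a1 and Eif4a2 share no more than 20 bases in a row of coding sequence. Eif4a2 was at 8.63 and 8.41 in KO1, 8.39 and 9.82 in KO2, and 8.39 and 8.24 in Control, and its KO2 libraries were the furthest apart of any member (SD 1.01). It hosts small nucleolar RNA genes, and 6 annotated genes overlap it on its own strand.

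Of the 4 genes that hold eIF4E back, 0 fell in KO1 (6% of all genes did), 2 in KO2 (29%) and 2 in the average (26%). Eif4enif1 encodes 4E-T, which carries eIF4E into the nucleus and represses it in the cytoplasm. It was at 7.30 and 7.04 in KO1, 7.21 and 6.82 in KO2, and 8.05 and 8.80 in Control. All 4 knockout libraries lay below both Control libraries, although the Control libraries were far apart (SD 0.527). Eif4enif1 fell by 1.41 ± 0.31 in KO2 (adjusted p = 0.0273), KO1 was at -1.26 ± 0.31 (adjusted p = 0.0651), and centring left -0.88 in KO1 and -0.85 in KO2. Eif4ebp1 encodes 4E-BP1, the eIF4E inhibitor that the kinase mTORC1 inactivates. It was at 4.88 and 4.92 in KO1, 4.69 and 4.61 in KO2, and 5.37 and 5.28 in Control, and its groups did not overlap. Eif4ebp1 fell by 0.68 ± 0.16 in KO2 (adjusted p = 0.0302; -0.12 after centring). Eif4ebp2 was at -0.61 ± 0.22 in KO1 and -0.44 ± 0.22 in KO2, and Eif4ebp3, with the lowest Control index of the 65 genes, at 0.05 ± 0.52 and -0.92 ± 0.52; neither passed.

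Of 12 listed genes of mTORC1 and the control of cap-dependent translation, 0 were called in KO1, 2 fell and 1 rose in KO2 (29% of all genes fell and 0.563% rose), and 4 fell and 1 rose in the average (26% and 0.578%). Pdcd4, which encodes an inhibitor of eIF4A, was at 2.19 and 2.26 in KO1, 1.98 and 1.90 in KO2, and 3.07 and 2.99 in Control, and fell by 1.09 ± 0.17 in KO2 (adjusted p = 0.0177; -0.54 after centring). Rps6kb2, an S6 kinase gene downstream of mTORC1, was at 4.56 and 4.43 in KO1, 4.96 and 4.85 in KO2, and 3.97 and 3.92 in Control. Its groups did not overlap, and it rose by 0.96 ± 0.16 in KO2 (adjusted p = 0.0186; 1.52 after centring). Tsc1, which encodes a subunit of the complex that restrains mTORC1, fell by 0.99 ± 0.22 in KO2 (-0.43 after centring). Tsc2, its partner, and Mknk2, an eIF4E kinase gene, fell in the average by 0.69 ± 0.19 and 0.62 ± 0.16. Centring left Tsc2 at -0.22 and Mknk2 at -0.15 in the average. Mtor itself was at -1.14 ± 0.36 in KO2 and did not pass (adjusted p = 0.0601).

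Eif4a3 encodes the helicase of the exon junction complex, which marks spliced mRNA, and did not pass (KO1 -0.36 ± 0.22, KO2 -0.21 ± 0.22). Eif5b encodes the GTPase that joins the ribosomal subunits. It was at 6.60 and 6.70 in KO1, 6.54 and 6.12 in KO2, and 7.32 and 7.05 in Control, with no overlap between either knockout and Control. Eif5b fell by 0.86 ± 0.22 in KO2 (adjusted p = 0.0387; -0.30 after centring). Eif6 keeps the large subunit from joining early. It was at 0.77 and 0.59 in KO1, 1.55 and 0.99 in KO2, and 1.73 and 1.80 in Control, and the average fell by 0.79 ± 0.21 (adjusted p = 0.0445; -0.32 after centring), with KO1 at -1.08 ± 0.24 and KO2 at -0.49 ± 0.24.

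Eif5a2, one of the 2 genes for eIF5A, had the largest fall of the 65 in each contrast with Control. Its index was 3.07 and 3.20 in KO1, 2.74 and 2.62 in KO2, and 4.51 and 4.50 in Control. Replicates lay close together, and the 3 groups did not overlap. Eif5a2 fell by 1.37 ± 0.16 in KO1 (adjusted p = 0.0376) and by 1.83 ± 0.16 in KO2 (adjusted p = 0.017). On the linear scale the index fell by 61.3% in KO1 and by 71.8% in KO2, and it was 8.78 in KO1, 6.40 in KO2 and 22.7 in Control. Among all 12974 genes, Eif5a2 had the 452nd lowest change in KO1 and the 179th lowest in KO2. After centring it was at -0.99 in KO1 and -1.27 in KO2, and neither passed (adjusted p = 0.102 and 0.0984). Over 16 alternative settings the adjusted p lay between 0.0357 and 0.148 for KO1 and between 0.0168 and 0.102 for KO2. The gene has 1 transcript in the table and overlaps no other annotated gene.

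Eif5a, the widely expressed copy, was at 1.73 and 1.89 in KO1, 1.86 and 1.92 in KO2, and 2.50 and 2.06 in Control. All 4 knockout libraries lay below both Control libraries, but the changes of -0.47 ± 0.21 in KO1 and -0.39 ± 0.21 in KO2 were close to the median of all genes and did not pass. Eif5a has 9 distinct sets of transcript values, of which 4 were below Control in the average. The 9 ranged from -0.43, for the transcript used, to 0.38, so the direction of Eif5a depended on the transcript. The difference between the copies' changes was not tested. Their coding sequences are 72.73% identical, and the longest stretch they share is 14 bases, at coding positions 28 to 41 in both, shown in capitals with 6 bases on either side; it is shorter than the sequenced fragments.
Eif5a: gagacaGGAGATGCAGGGGCctcagc
Eif5a2: actactGGAGATGCAGGGGCttccag
The RefSeq tables (GRCm38.p6) place the 50 bases before the start of Eif5a2 at chr3:28781227-28781276 on the plus strand and those of Eif5a at chr11:69921387-69921436 on the minus strand. They are given to show the sequence upstream of each copy, and neither holds TATAAA.
Eif5a2: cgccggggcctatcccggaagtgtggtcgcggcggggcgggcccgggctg
Eif5a: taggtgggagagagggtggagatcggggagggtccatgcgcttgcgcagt
The enzymes that add hypusine to eIF5A, encoded by Dhps and Dohh, did not pass: Dhps was at -0.35 ± 0.24 in KO1 and -0.81 ± 0.24 in KO2, and Dohh at 0.24 ± 0.18 and -0.60 ± 0.18.

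**Figure D3:**
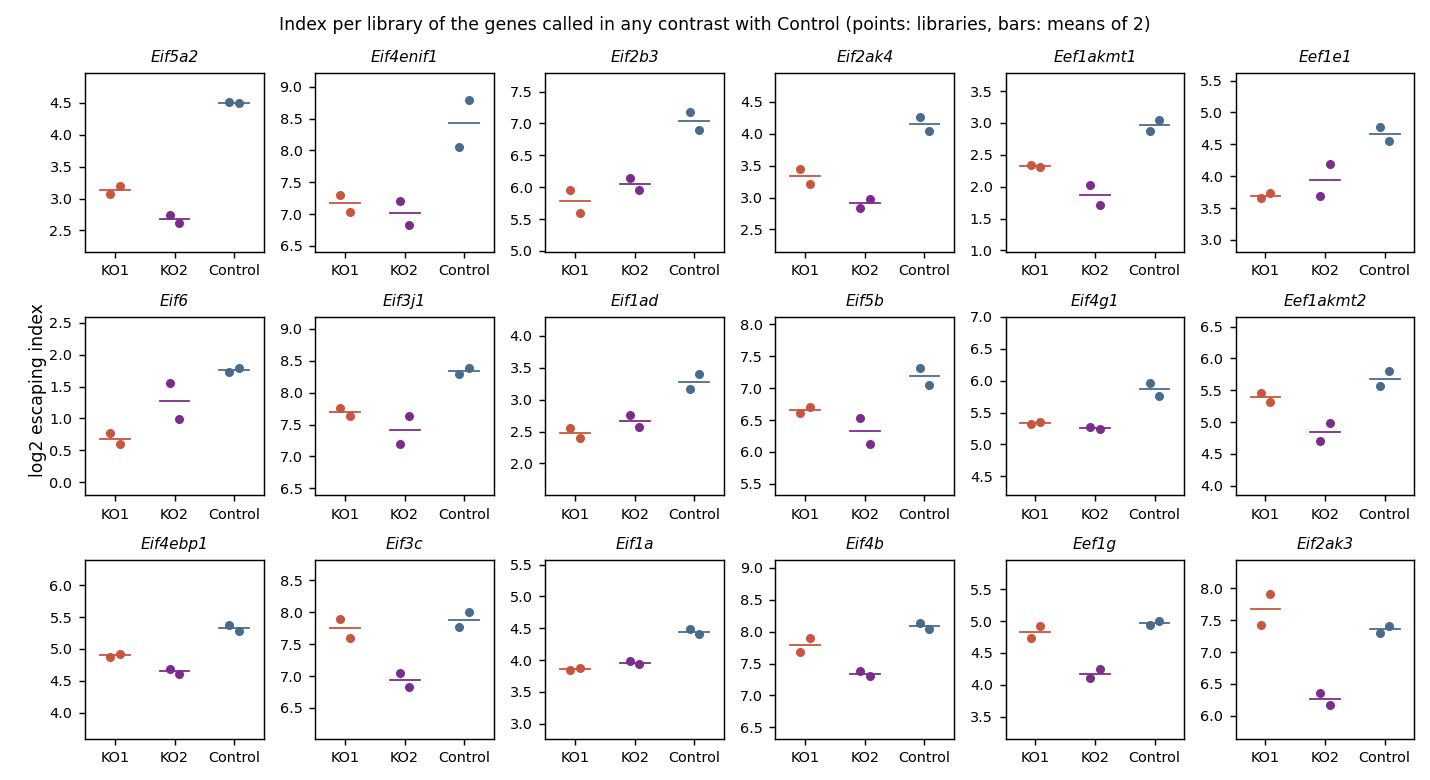
Log2 escaping index per library for the 18 genes called in any contrast with Control, with KO1, KO2 and Control along each x axis; points are libraries and bars the means of 2. Eif5a2 shows the widest gap, between 2.62 and 3.20 in the knockout libraries against 4.50 and 4.51 in Control, and Eif2ak3 has KO1 above and KO2 below Control; none of these genes passed after median centring.

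Under eEF1, 5 genes were grouped. Of these, 0 fell in KO1 (6% of all genes did), 1 in KO2 (29%) and 1 in the average (26%). The call in the average was Eef1e1, whose product belongs to another complex, as given below. Eef1g, the gamma subunit of the exchange factor that recharges eEF1A, was at 4.74 and 4.93 in KO1, 4.11 and 4.24 in KO2, and 4.94 and 5.00 in Control. The KO2 libraries stood below the other 4, and Eef1g fell by 0.79 ± 0.17 in KO2 (adjusted p = 0.0256; -0.24 after centring), with KO1 at -0.14 ± 0.17. Eef1e1, which encodes an auxiliary protein of the aminoacyl-tRNA synthetase complex, was at 3.66 and 3.73 in KO1, 3.69 and 4.19 in KO2, and 4.77 and 4.55 in Control. Its knockout libraries lay below both Control libraries, and the average fell by 0.85 ± 0.20 (adjusted p = 0.0318; -0.38 after centring). Eef1d, the delta subunit, was above Control by 0.41 ± 0.27 in KO1 and 0.40 ± 0.27 in KO2 and did not pass.

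Eef2 encodes the translocase. It was at 4.07 and 4.34 in KO1, 3.66 and 3.62 in KO2, and 3.77 and 3.84 in Control, and did not pass in KO1 (0.40 ± 0.18, adjusted p = 0.183) or KO2 (-0.17 ± 0.18, adjusted p = 0.48). It was the 1 member of 51 with a RefSeq promoter entry that held TATAAA or its reverse complement TTTATA within 60 bases before its start; 1.73% of 12954 entries did. The 50 bases before its start, chr10:81176581-81176630 on the plus strand, are printed with the match in capitals.
Eef2: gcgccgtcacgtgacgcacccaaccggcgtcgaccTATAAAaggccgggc
The 7 genes for diphthamide, the modified residue of eEF2, had 1 member called in KO2 (29% of all genes fell), Dph7, which acts late in its synthesis. Dph7 was at 0.37 and 0.20 in KO1, 0.32 and 0.25 in KO2, and 1.35 and 0.98 in Control, and fell by 0.88 ± 0.21 in KO2 (adjusted p = 0.0333; -0.32 after centring).

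Of the 6 genes whose products modify elongation factors, 0 fell in KO1 (6% of all genes did), 2 in KO2 (29%) and 1 for the average (26%). Eef1akmt1, a lysine methyltransferase of eEF1A, was at 2.33 and 2.30 in KO1, 2.03 and 1.72 in KO2, and 2.88 and 3.04 in Control. The 3 groups did not overlap, and it fell by 1.09 ± 0.19 in KO2 (adjusted p = 0.0195; -0.53 after centring), with KO1 at -0.64 ± 0.19 (adjusted p = 0.0904). Eef1akmt2, another methyltransferase of eEF1A, fell by 0.83 ± 0.19 in KO2 (adjusted p = 0.0305; -0.28 after centring), and its index was 5.45 and 5.32 in KO1, 4.70 and 4.99 in KO2, and 5.56 and 5.80 in Control. Eef2k, the kinase that inhibits eEF2, was at -0.68 ± 0.34 in KO1 and 0.06 ± 0.34 in KO2, and Eef2kmt, which methylates eEF2, at -0.78 ± 0.33 and -0.72 ± 0.33; neither passed.

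**Figure D4:**
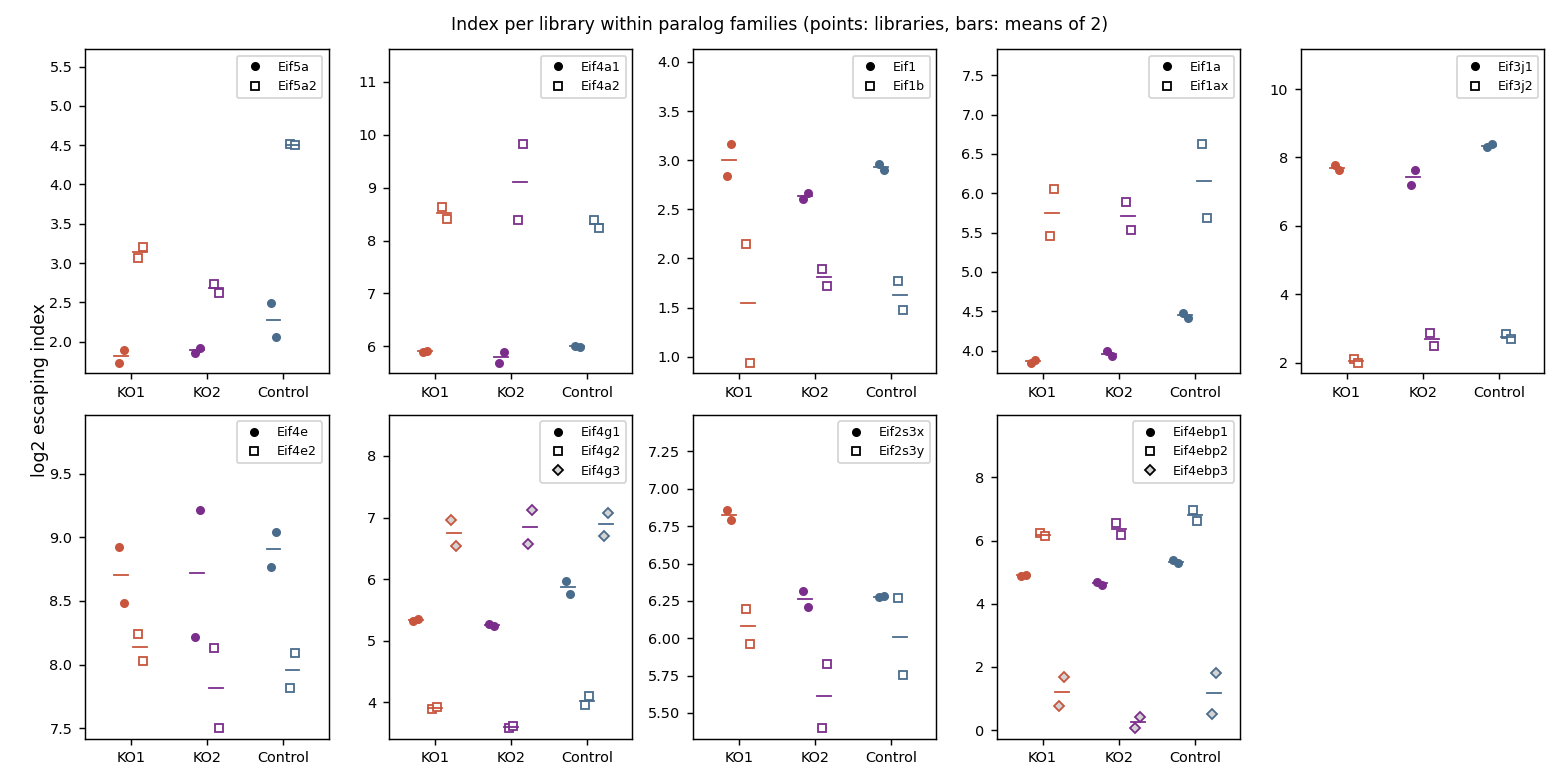
Log2 escaping index per library within 9 paralog families, with KO1, KO2 and Control along each x axis; points are libraries and bars the means of 2. Eif5a2 lies between 2.62 and 3.20 in the knockouts against 4.50 and 4.51 in Control, and Eif5a between 1.73 and 1.92 against 2.06 and 2.50; the y axis differs between panels.

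For several members the value depended on which annotated start was taken. The table holds 389 transcripts of the 65 genes with 379 distinct sets of values, and 252 of the 379 were lower in the average of the knockouts than in Control. Of the called members, Eef1akmt2, Eef1e1, Eif1a, Eif1ad, Eif5a2 and Eif5b had every transcript below Control in the average. Each other called member had a transcript above it. The highest such value was 0.87 for Eif4g1, 0.61 for Eif2ak4, 0.41 for Eif2b3, 0.39 for Eef1akmt1, 0.38 for Eif6 and 0.35 for Eif4enif1. For the others it was 0.23 for Eif4b and Eef1g, 0.18 for Eif4ebp1, 0.12 for Eif3c, 0.07 for Eif3j1 and 0.04 for Eif2ak3. Those differences were not tested. Eif4g1 has 24 transcripts. Of its protein-coding models, those that start within 100 bases downstream of the one used were between -0.50 and -0.65 in KO1 and between -0.57 and -0.75 in KO2. The model with the longest summed exons starts 794 bases further downstream and was at 4.36 and 4.16 in KO1, 4.29 and 4.25 in KO2, and 3.96 and 4.13 in Control. It was above Control by 0.22 ± 0.17 in KO1 and by 0.23 ± 0.17 in KO2 (adjusted p = 0.341; 0.0437 to 0.912 over the alternatives of this result), so the sign of Eif4g1 turned with the start. The first 25 bases of both models (GENCODE M21, mm10, chromosome 16, plus strand, starts at 20672723 and 20673517) are given to show where each begins.
Eif4g1, start used: ctccgccctctgcgccggtcacgtg
Eif4g1, downstream start: gccagcaagacctggaatttccggt

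Eif2ak4 showed a like dependence. The 2 models that start at 118388618 on chromosome 2 (plus strand) were at -0.82 and -0.78 in KO1 and at -1.25 and -1.18 in KO2. The model that starts 229 bases downstream was at -0.18 in KO1 and -0.74 in KO2 and did not pass (adjusted p in KO2 = 0.0527; 0.018 to 0.132 over the alternatives). The models that start 494 bases downstream were at 8.15 and 7.04 in KO1, 7.89 and 7.19 in KO2, and 6.96 and 6.95 in Control. All 4 knockout libraries lay above both Control libraries there, and the replicates of each knockout were far apart; this difference was not tested. The 50 bases before the RefSeq start, chr2:118388567-118388616, and the first 25 bases of the models at 0 and 494 bases are given next.
Eif2ak4, before the start: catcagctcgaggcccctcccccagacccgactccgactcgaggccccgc
Eif2ak4, start used: ctcagttcggtcacggcgcgggctg
Eif2ak4, start at 494 bases: attcttccccacactgactcgcccc

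Eif4enif1 kept its direction and its call in KO2 with the model that starts 358 bases downstream, at less than the change of the model used. That model was at -0.73 ± 0.16 in KO1 and -0.67 ± 0.16 in KO2 (limma, adjusted p = 0.0329). Its other models varied more: of 12 distinct sets of transcript values, 6 were below Control in the average, and the range was -1.70 to 0.35. Eef1a1, the gene for the main form of eEF1A in most tissues, was at 9.75 and 9.03 in KO1, 8.32 and 7.92 in KO2, and 8.60 and 9.04 in Control with the model used, which starts 7427 bases upstream of the model with the longest summed exons. The model with the longest exons was at 2.81 and 2.79 in KO1, 2.22 and 2.21 in KO2, and 2.88 and 2.77 in Control. It fell by 0.61 ± 0.16 in KO2 (limma, adjusted p = 0.0426). With the longest exons taken for every gene, which also gave the Eif4enif1 model above, the median of all genes in KO2 was -0.56. That choice of transcripts was not fitted after centring. With the upstream model, Eef1a1 was at -0.70 ± 0.34 in KO2 and did not pass (limma, adjusted p = 0.155). The model used for Eif6 has 373 exonic bases, and the one with the longest exons, 1382 bases, gave -0.89 in KO1, -0.82 in KO2 and a fall of 0.86 ± 0.21 in the average (adjusted p = 0.0364). Of the 65 genes, 55 have the same transcript under both rules and 10 do not.

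**Figure D5:**
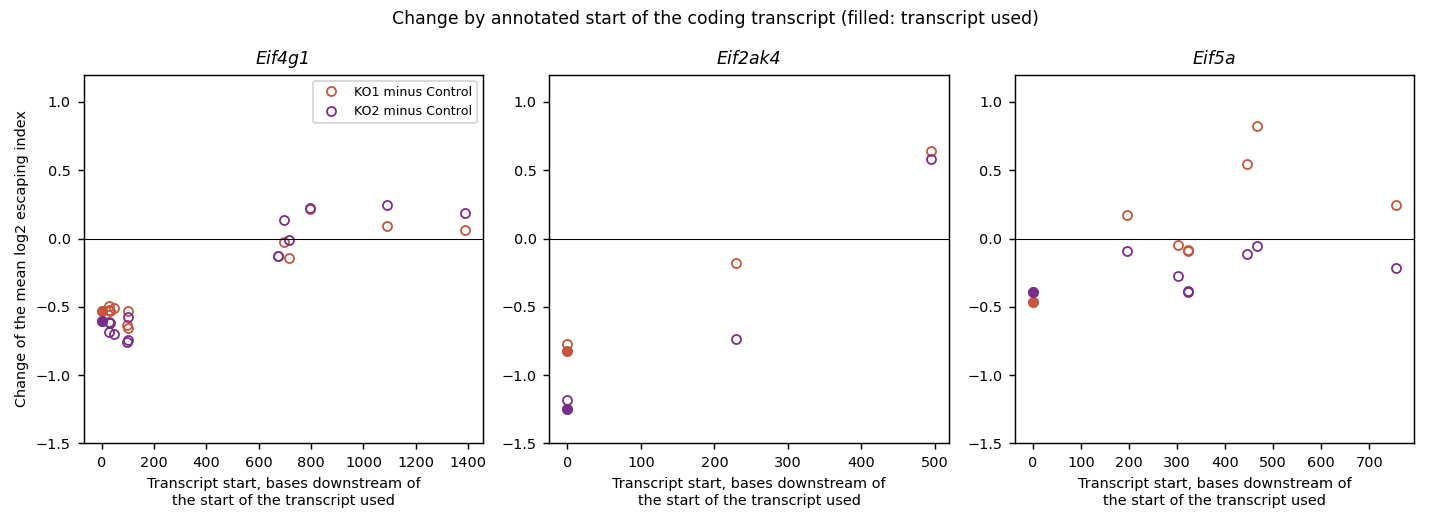
Change of the mean log2 escaping index against the annotated start of each coding transcript, in bases downstream of the start of the transcript used, for Eif4g1, Eif2ak4 and Eif5a; one colour is KO1 minus Control and the other KO2 minus Control, and filled points are the transcript used. For Eif4g1 and Eif2ak4 the points at the start lie below 0, at -0.53 and -0.82 in KO1, and those at 794 and 494 bases above it, at 0.22 and 0.64; models that start far upstream or further downstream than the axes reach are not drawn.

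KO1 and KO2 were also compared directly, and 0 of 65 members passed (0 of all 12974 genes did; limma), while 12 members had an unadjusted p under 0.05, as did 20.5% of all genes. KO1 was lower than KO2 in 20 members and in 32.4% of all genes. For 4 members, namely Eef2, Eif2ak3, Eif2b4 and Eif3a, both KO1 libraries lay above and both KO2 libraries below both Control libraries, as in 2.74% of all genes; on opposite sides in either order were 3.41%. The member with the smallest p was Eif2ak3, at 1.41 ± 0.23 in KO1 minus KO2 (adjusted p = 0.125), followed by Eif3a, at 0.87 ± 0.17 (adjusted p = 0.125). In the other direction, Eif3j2 had the smallest p, at -0.62 ± 0.20 (adjusted p = 0.182). Eef1a1, at 1.28 ± 0.34, and Eef1g, at 0.66 ± 0.17, had adjusted p-values of 0.149 and 0.146. The members' median was 0.25 and that of all genes 0.20, so KO2 lay lower than KO1 over the family about as far as over the table.

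The index was tied to gene length. Across the 65 genes the Control index rose with the log10 of the genomic span (Pearson's r = 0.567, Spearman's rho = 0.567, n = 65), and across all genes r was 0.688; the genes share their libraries and are not independent replicates. Values are therefore compared within genes and not as levels between them. With all genes in 3 equal bins by span, 28 members lay in the bin up to 12943 bases, 28 in the bin up to 38039 bases and 9 above. In KO2, 1 of the 28 shortest fell, 8 of the 28 in the middle and 5 of the 9 longest, where 25.3%, 29.6% and 32.2% of all genes in the same bins were called lower. The longest bin holds few members, and the difference between bins was not tested.

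mRNAs of elongation factors and ribosomal proteins are known for a terminal oligopyrimidine tract, a C followed by pyrimidines at the very start, which mTORC1 acts on through LARP1. A C followed by at least 4 pyrimidines at the first annotated base of the transcript used was found in 2 of 65 members, Eif3f and Eif2s1, and in 2.23% of 12974 genes. On any coding transcript, 8 members had one. The first 25 bases are shown with the tract in capitals (Eif3f, chromosome 7, plus strand, start at 108934417; Eif2s1, chromosome 12, plus strand, start at 78861819).
Eif3f: CTCTTTCTCggcaagatggcttctc
Eif2s1: CTCTTggttgactaaaacttaaagc
Neither gene passed in any contrast with Control. Annotated starts can lie some bases off the start used in these cells, and an absent match says only that these letters are not at the annotated base.

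Replicate libraries correlated across the 65 genes at r = 0.973 in KO1, 0.979 in KO2 and 0.976 in Control, and across all genes at 0.975, 0.977 and 0.969. The members' median SD between replicates was 0.164 in KO1, 0.141 in KO2 and 0.168 in Control. All 6 listed embryonic stem cell markers, Esrrb, Klf4, Nanog, Pou5f1, Sox2 and Zfp42, are in the table, as are 2 of 4 fibroblast feeder markers, Col1a1 and Thy1. A ratio within a gene is not a level, so these entries do not measure how many cells of either type were present, and their part in the results was not tested. The read depth is unknown, and no interval from counts is given.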

How the data were processed

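The authors deposited 1 table of log2 values, an escaping index for 68473 transcripts in 6 libraries, with no replicates pooled. Per the submitters' processing notes, CASAVA, Trimmomatic 0.38, HISAT2 2.1.0, featureCounts and the mm10 build were used; what each did, which strand setting was used and which windows make the index was not given in the sources used here. Values behave as logarithms of a ratio with a small offset added, a scale read from the numbers and not from a label, so they were tested as deposited, where the design had allowed for linear values. Depth is unknown. Libraries were not rescaled in the main fit, so a table-wide shift stayed within the comparison. Where that shift comes from was not tested.

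Transcripts were matched to GENCODE M21 (68397 matched, 76 did not). Each protein-coding gene was represented by its coding transcript with the longest span, which gave 12974 genes. One limma fit held all 3 groups (limma 3.58.1, R 4.3.3; moderated variances with a trend, two-sided, Benjamini-Hochberg over all genes, threshold 0.05; 3 residual degrees of freedom plus a prior of 2.68). The fit was tested on simulated data over 12974 genes, with few genes altered and no shift of the whole table. Of genes altered by 2 log2 units it called 88.4% (KO1), 88% (KO2) and 95% (average). Of those altered by 1 unit it called 12.2%, 10% and 27.6%. Most genes moved in the deposited data, so these rates do not carry over to the calls above. Python 3.11.15 (numpy 2.4.6, scipy 1.17.1, pandas 2.3.3) handled tables and sequences. Promoter windows are from RefSeq (51 of 65 members matched); coding sequences and transcript ends are from GENCODE M21.

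Members, role groups and gene lists were chosen with earlier results of these data known. By rule, members are named where called, where in a paralog family, where among the 2 smallest p-values of a role group in the average, where among the 3 smallest per direction in a contrast, or where among the 3 highest or lowest in Control; of the pathway lists, called genes and the smallest p of each list are named. Other genes named complete a group and were chosen after their values were seen. Alternatives covered the transcript, the genes tested, scaling, an offset, a filter, the variance trend, the groups fitted, the replicate block and each library left out.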

Additional observations from a re-analysis of the deposited data

Results flagged for a closer look

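For 4 of 65 members (6.15%) both KO1 libraries lay above, and both KO2 libraries below, both Control libraries, which held for 355 of all 12974 genes (2.74%), and 443 (3.41%) had the knockouts on opposite sides in either order. The difference between the knockouts was tested for each, with KO1 minus KO2 at 1.41 for Eif2ak3 (PERK), 0.867 for Eif2b4 (eIF2B delta), 0.866 for Eif3a (a core eIF3 subunit) and 0.563 for Eef2 (the translocase). None passed in limma, with adjusted p-values of 0.125, 0.138, 0.125 and 0.175. Eif2b4 was at 3.98 and 4.12 in KO1, 3.03 and 3.34 in KO2, and 3.40 and 3.71 in Control. After median centring KO2 was above 0 for Eif2b4 (0.18), Eif3a (0.06) and Eef2 (0.39), so for these 3 the opposite sides depended on the scale; for Eif2ak3 KO1 was at 0.69 and KO2 at -0.54. What differs between the knockouts was not tested.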

How the results depend on the processing

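The counts of members called were 2 (KO1), 14 (KO2), 13 (average) and 0 (between the knockouts). Median centring and quantile normalization each gave 0, 0 and 0 against Control, as well as 0 of all 12974 genes, and the number of members with all 4 knockout libraries below both Control libraries dropped to 6 under centring, against 26. The mean of all transcripts gave 1 for KO1, 8 for KO2 and 4 for the average, all gene types gave 0 in KO1 and 6 in the average, only the groups compared gave 0 in KO1 and 9 in KO2, and the knockouts fitted as 1 group gave 5 in the average. The replicate numbers did not pair the libraries (correlations of their deviations 0.0016, -0.0090 and 0.0077); the replicate block gave 0 for KO1, 9 for KO2 and 5 for the average. Leaving out each library, with the lone sample of a group assumed to vary like the others, gave 0 to 0 for KO1, 0 to 9 for KO2 and 0 to 3 for the average, and 28 to 36 members with all knockouts below Control. For KO2 it was 0 without Control replicate 2 or either KO2 library, 5 without Control replicate 1 (1528 of all genes) and 9 without either KO1 library (2752 and 2755); for the average it was 3 without KO1 replicate 2 (1138) and 0 without any other library. All 29 calls kept their sign in all 174 such fits. This was bound to hold, since in each call the knockout libraries compared all lay below both Control libraries. The number of members with all knockouts below Control can likewise only stay or rise when a library is left out. Neither result measures how stable the calls are. The same fits called 0 of all 12974 genes in KO1; the cause was not tested. The longest summed exons (2, 13 and 11), an offset of 1, the filter and the fit with no variance trend left the counts within 1.5 times. Eif4g1 reversed with the longest exons, at 0.23 in KO2 and 0.22 in the average. Of 2816 values of the 44 named members under alternatives, 189 that did not pass had another sign than the main value, 108 of them under the 2 scalings.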

Other observations

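Genes that act beside the factors at the start, the end and in mitochondria were read in the same fit. Of 10 listed genes of poly(A) binding and start regulation, 0 fell in KO1 (6% of all genes), 2 in KO2 (29%) and 2 for the average (26%). Paip1, which encodes an activator that bridges the poly(A)-binding protein and eIF4A, was at 3.43 and 2.70 in KO1, 2.71 and 3.06 in KO2, and 4.20 and 4.57 in Control, and fell by 1.50 ± 0.31 in KO2 (adjusted p = 0.0242; limma; -0.94 after centring). Paip2b, a repressor of the poly(A)-binding protein, fell by 0.80 ± 0.17 in KO2 (-0.25 after centring). Of 6 genes of termination and recycling, 0 fell in KO1 (6% of all genes), 2 in KO2 (29%) and 2 for the average (26%). In KO2 Etf1 (the release factor eRF1) fell by 0.93 ± 0.20 and Abce1 (the recycling ATPase) by 1.25 ± 0.17 (-0.37 and -0.70 after centring). Abce1 was at 4.49 and 4.57 in KO1, 3.98 and 4.19 in KO2, and 5.31 and 5.37 in Control, with no overlap between either knockout and Control.

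Of 8 measured mitochondrial translation factor genes, 1 fell in KO2 (29% of all genes did) and 1 rose in the average (0.578%). Mtif2 (the mitochondrial initiation factor) fell by 0.79 ± 0.21 in KO2 (-0.23 after centring). Tufm, which encodes the mitochondrial counterpart of eEF1A, rose by 1.34 ± 0.35 in the average (limma, adjusted p = 0.0419, and 1.80 after centring). Tufm was at 6.54 and 6.22 in KO1, 5.60 and 4.96 in KO2, and 3.98 and 5.00 in Control; the KO1 libraries lay above both Control libraries, and KO2 overlapped Control. Eefsec, the elongation factor for selenocysteine, fell by 0.62 ± 0.16 in the average (limma, adjusted p = 0.0426, and -0.16 after centring). Secisbp2, its partner at the selenocysteine element, was at -0.21 ± 0.16. Over all 55 genes of these lists and those in the report, 1 fell in KO1, where 6% of all genes did. In KO2, 12 fell and 1 rose (29% and 0.563% of all genes). For the average, 13 fell and 2 rose (26% and 0.578% of all genes). The falls make 21.8% of the 55 in KO2 and 23.6% for the average, under the shares of all genes. Neither falls nor rises were tested against these shares. After median centring 0 of these calls passed, as 0 of all 12974 genes did.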
